A study of Danio rerio with 6 samples.

Results

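The genes described here are the ferritin heavy chain genes of the zebrafish, fth1a, fth1b, fthl27, fthl28, fthl29, fthl30 and fthl31, measured in the heads of embryos kept in 6PPD or in DMSO. They were taken as every row of the expression table that carries 1 of these 7 names, which gave 9 of 32057 rows, because fthl27 and fthl31 each have a second, short row. The family was taken up with its difference between the 6PPD and DMSO libraries known, mainly that of fthl31 and fthl28. The differences between these groups are therefore given for its members as a description, without a p-value.

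RNA was sequenced from heads dissected at 2 days post-fertilization (dpf). The treated group had been in 500 µg/L 6PPD, which protects tire rubber from oxidation, since 10 hours post-fertilization (hpf). The control group had been in the solvent DMSO over the same period. Each group held 3 libraries that the labels call biological replicates, and each library pooled 150 heads. All embryos of both groups received the pigment inhibitor 1-phenyl-2-thiourea (0.003%) from 24 hpf. The labels state no strain, genotype or transgene, and call the tissue brain.

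Ferritin is the iron store of the cell, a hollow protein shell that holds iron as a mineral. Its heavy chain carries the ferroxidase centre, which oxidizes ferrous iron so that it can be laid down inside the shell and no longer feeds radical reactions. In vertebrates iron regulatory proteins hold back the translation of ferritin mRNA when iron is scarce, the transcription factor Nrf2 raises its transcription under oxidative stress, and the cargo receptor NCOA4 takes ferritin to the lysosome, where its iron is freed. The release of ferritin iron is tied to ferroptosis, a form of cell death driven by lipid peroxidation that the title of the series names. Levels of mRNA, as measured here, do not show translation or the amount of ferritin protein.

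The values are FPKM, fragments scaled by the length of the gene and the size of the library, so levels of different genes can be set side by side per length. The difference of each gene between the groups was estimated with limma on log2(FPKM + 1) across the 15320 genes whose mean reached 1 FPKM. In that fit 522 genes passed a Benjamini-Hochberg adjusted p under 0.05, 346 higher and 176 lower in 6PPD. The split was 204 higher and 244 lower after median-ratio scaling, and 293 and 254 after quantile normalization. The median log2 difference of all tested genes was 0.06, and 0.12 after rescaling to TPM. On the first principal component (43.5% of the variance) DMSO replicate 3 stood at -4.70, between DMSO replicates 1 and 2 (-20.6 and -22.8) and the treated libraries (15.3 to 16.9). Without it 1134 genes passed. The 10 brain markers listed were all above the filter and summed to 2262 to 2632 FPKM, with 6 positive and 4 negative log2 differences. Of them 2, the neuronal genes elavl3 and snap25a, were called higher in 6PPD (limma adjusted p = 0.0324 and 0.0328). The glial genes gfap and fabp7a were lower in each 6PPD library than in each DMSO library and were not called (limma adjusted p = 0.0574 and 0.145). The markers stmn1b and her4.1 were higher in each 6PPD library and were not called (limma adjusted p = 0.0552 and 0.0807). The groups overlapped for sox2, gap43, neurod1 and tubb5, with log2 differences of 0.14, 0.09, -0.02 and -0.10. Lens markers summed to 1571 to 2443 FPKM and epidermal markers to 3383 to 7287 FPKM, so the libraries hold RNA of the whole head. In such mixed tissue, fewer cells of a type and less RNA per cell cannot be told apart. Fragment counts could not be recovered from the FPKM, so the depth behind each value is unknown.

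The fthl genes lie in tandem. On GRCz11, as the table gives positions, fthl27 (ENSDARG00000031776) begins the series on chromosome 3 at 32099507 and ends at 32100999. It is followed on the same strand by fthl28 (ENSDARG00000076221, 32105175 to 32106672), fthl30 (ENSDARG00000077360, 32112004 to 32113648), fthl31 (ENSDARG00000094210, 32118670 to 32120354) and fthl29 (ENSDARG00000113977, 32125452 to 32127583). Gaps of 4175 to 5331 bases separate these 5 genes. Behind them come a second row named fthl31 (ENSDARG00000113150, 32129632 to 32130455), the unnamed gene BX511021.1 (ENSDARG00000073936, 32135037 to 32136228), which the table describes as a ferritin middle subunit-like gene, and a second row named fthl27 (ENSDARG00000116586, 32139666 to 32140446). The second rows of fthl31 and fthl27 each have a gene length of 279 bases, against 999 and 1493 bases for the first rows. The 8 genes cover 40.9 kb, all on the plus strand, between aldh16a1 and syt5a. RefSeq's annotation of another assembly, GRCz12tu, lists fthl27, fthl28, fthl30, fthl31 and fthl29 in the same order between aldh16a1 and syt5a, with 1 gene per name. Between fthl29 and syt5a it also lists the protein-coding genes LOC558816 and zgc:173594 and the long noncoding RNA gene LOC141381217. The other members lie alone, fth1a (ENSDARG00000015551) on chromosome 7 at 12927944 to 12936708 and fth1b (ENSDARG00000007975) on chromosome 25 at 3058924 to 3066067. How alike the copies are in sequence was not examined, and no source used here says how the authors' counting divided fragments between them, so the values of the tandem copies are uncertain in that respect.

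In DMSO heads the family was carried by fth1a and fthl27. The level of fth1a was 613, 553 and 449 FPKM in DMSO replicates 1 to 3, a mean of 538 ± 82.8 FPKM (SD, n = 3), which ranked 139 among the 32057 genes. The level of fthl27, the first gene of the tandem, was 203, 208 and 180 FPKM (197 ± 15.0). The ranges of these genes did not overlap each other or those of any other member. The gene fth1b was at 8.38, 9.45 and 9.91 FPKM (9.25 ± 0.786), above fthl31 at 4.96, 7.32 and 3.88 FPKM (5.39 ± 1.76) in each library. Below these, fthl28 was at 3.46, 4.69 and 2.24 FPKM (3.47 ± 1.23) and the short row of fthl27 at 5.47, 4.40 and 0.836 FPKM (3.57 ± 2.43), and these rows overlapped each other and fthl31. Next came fthl30 at 1.46, 0.902 and 0.762 FPKM (1.04 ± 0.369), which was below fthl28 in each library and overlapped the short row of fthl27. The lowest were the short row of fthl31 (0.0169, 9e-05 and 0.463 FPKM) and fthl29 (0.0698, 0.222 and 0.106 FPKM), which overlapped. Although their ranges overlapped, fthl31 was above fthl28 in each library.

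The main ferritin genes were close to their DMSO levels in 6PPD heads. In 6PPD replicates 1 to 3 fth1a was at 603, 539 and 564 FPKM (568 ± 32.2), inside the DMSO range. Its log2 difference was 0.09 ± 0.12 (SE), with a 95% interval of -0.19 to 0.37. The level of fthl27 was 208, 217 and 190 FPKM (205 ± 13.6), with a log2 difference of 0.06 ± 0.09 and an interval of -0.15 to 0.26. Replicate 3 was the lowest of its group in fthl27 in both groups, and in fth1a in DMSO. The paralog fth1b was at 10.6, 9.95 and 9.02 FPKM (9.87 ± 0.817), with a log2 difference of 0.09 ± 0.10 and an interval of -0.15 to 0.32. The 6PPD and DMSO ranges of each of these genes overlapped. Without DMSO replicate 3, the lowest library for fth1a and fthl27, their log2 differences were -0.04 and -0.00.

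**Figure D1:**
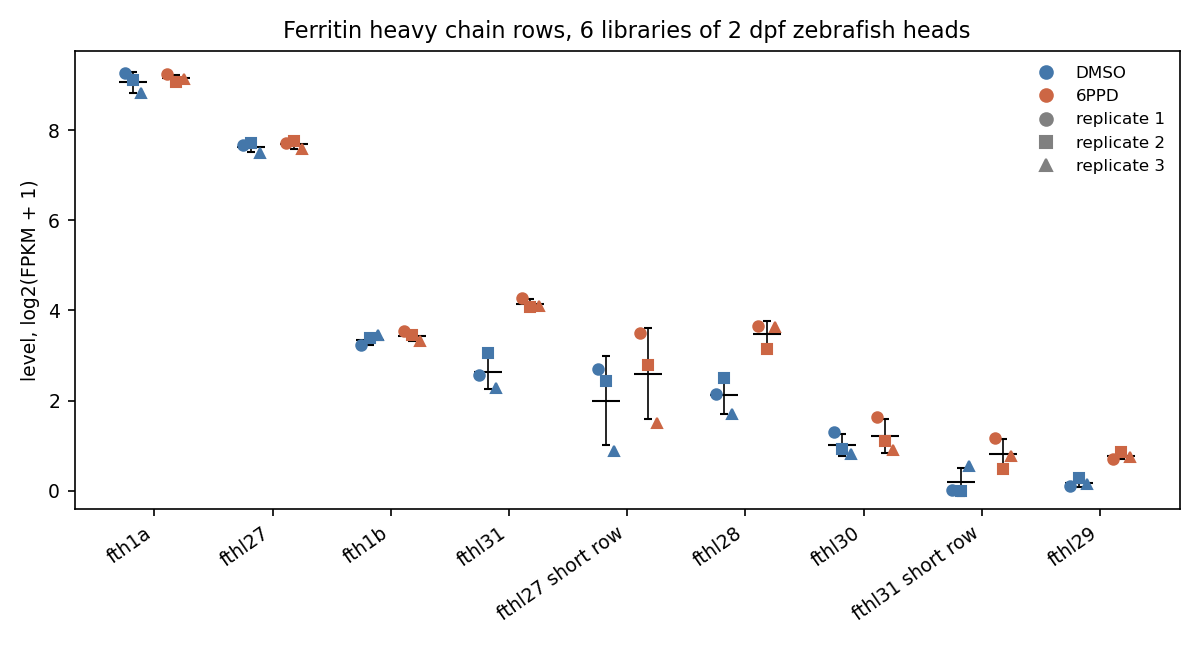
Level of each ferritin heavy chain row as log2(FPKM + 1) (vertical axis) in the 3 DMSO and 3 6PPD libraries, with the mean (bar) and SD of each group on that scale and 1 symbol per replicate number. The 6PPD libraries lay above all DMSO libraries for fthl31, fthl28 and fthl29, and the groups overlapped for the other rows.

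The levels of fthl31 and fthl28 were about 3 times as high in 6PPD heads. The gene fthl31 was at 18.5, 15.8 and 16.0 FPKM (16.8 ± 1.46), so the lowest 6PPD library was above the highest DMSO library, at 7.32 FPKM. The ratio of the group means was 3.11, and the log2 difference was 1.51 ± 0.17 (SE). It ranked 7 among the rises of all tested genes, a description only, since the family was taken up with this rise known. The gene fthl28 was at 11.7, 7.81 and 11.4 FPKM (10.3 ± 2.17), also without overlap with DMSO, a ratio of 2.97 and a log2 difference of 1.36 ± 0.21. With these levels fthl31 stood above fth1b in each 6PPD library, where it had been below it in each DMSO library, and fthl28 overlapped fth1b. Without DMSO replicate 3, where both were lowest, the log2 differences were 1.33 for fthl31 and 1.15 for fthl28. Of the DMSO libraries it was the nearest to the treated ones on that principal component and the farthest from them in these 2 genes.

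The remaining tandem rows were low. The gene fthl29 was at 0.635, 0.813 and 0.690 FPKM in 6PPD (0.713 ± 0.0914) against 0.133 ± 0.0795 FPKM in DMSO, a ratio of means of 5.38, and its ranges did not overlap. Its mean over all libraries was below the filter of 1 FPKM, and its log2 difference of 0.60 ± 0.07, from a fit without that filter, understates a change at such levels. The gene fthl30, which lies between fthl28 and fthl31, was at 2.1, 1.16 and 0.867 FPKM (1.37 ± 0.642), overlapping DMSO, with a log2 difference of 0.20 ± 0.21. The short row of fthl27 was at 10.2, 5.90 and 1.85 FPKM (6.00 ± 4.20), and replicate 3 was the lowest of its group in both treatments. The short row of fthl31 was at 1.26, 0.408 and 0.716 FPKM and overlapped DMSO. Of the 9 rows 7 were tested and 2 of these passed the threshold, both higher, namely fthl31 and fthl28, where 2.26% of all tested genes were called higher. The groups did not overlap, with 6PPD higher, in 2 of the 7 tested rows and in fthl29, and 17.1% of all tested genes separated in that direction. The family was chosen from this contrast, so nothing is read from these counts.

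**Figure D2:**
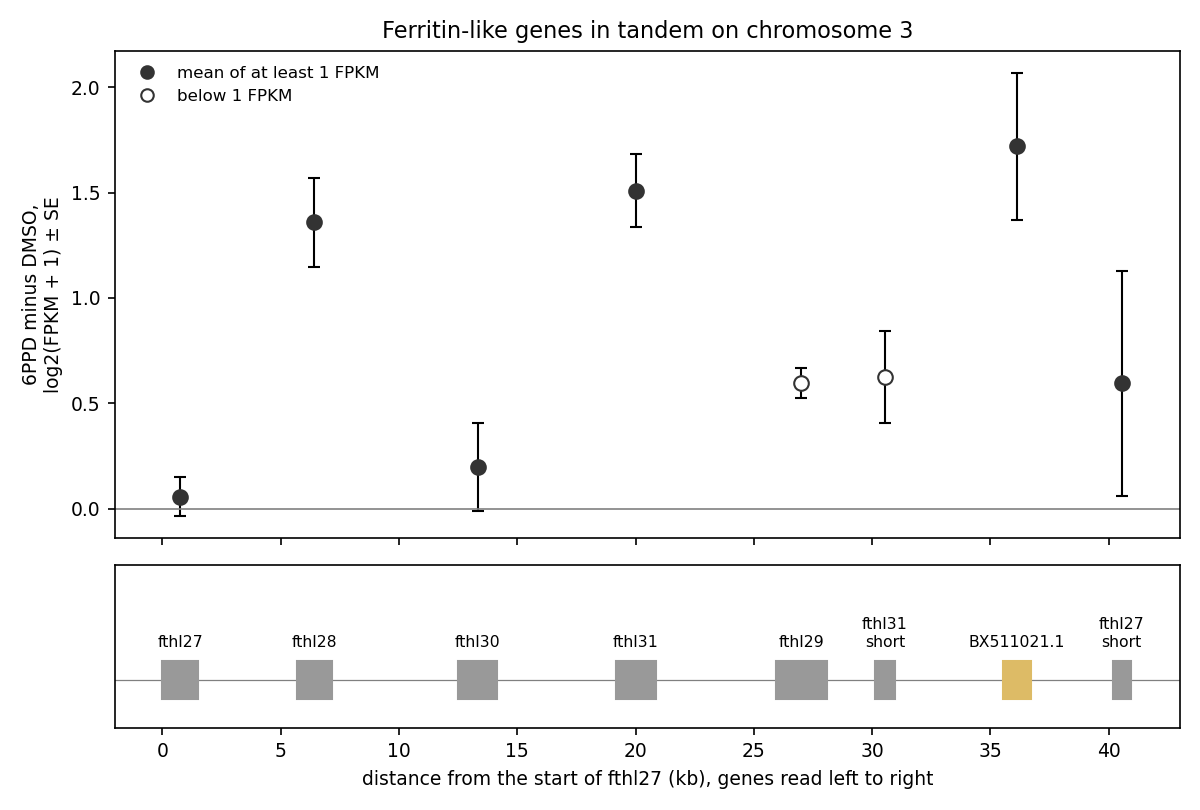
Difference between 6PPD and DMSO on the log2(FPKM + 1) scale with its SE (top) for the 8 ferritin-like genes of chromosome 3, at their distance in kb from the start of fthl27 (bottom, boxes to scale, BX511021.1 in yellow). Differences above 1 were those of fthl28, fthl31 and BX511021.1, and fthl27 and fthl30 stood at 0.06 and 0.20.

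The genes around the tandem were compared in the same fit. Upstream, aldh16a1, an aldehyde dehydrogenase family gene, had 6.05 ± 0.229 FPKM in controls and 6.16 ± 0.422 after 6PPD (log2 difference 0.02 ± 0.10, limma adjusted p = 0.928). Downstream, the synaptotagmin gene syt5a was below the filter, at 0.695 ± 0.332 and 0.481 ± 0.0865 FPKM. Within the tandem, BX511021.1 was at 1.53, 1.02 and 0.635 FPKM in controls and at 4.26, 11.8 and 3.41 after 6PPD. It rose by a log2 difference of 1.72 ± 0.35 (limma adjusted p = 0.0305), and its highest library was 6PPD replicate 2, in which fthl28 and fthl31 were lowest of the 6PPD group. The call was lost in 5 of 14 alternatives, with adjusted p from 0.0162 to 0.156. Beside fth1b, the unnamed gene si:ch1073-296i8.2 rose from 4.73 ± 0.251 to 8.06 ± 1.46 FPKM (limma adjusted p = 0.0319, lost in 8 of 15 alternatives, 0.0263 to 0.130), and the bestrophin gene best1 was at 1.02 ± 0.329 and 0.985 ± 0.314 FPKM (adjusted p = 0.952). The genes beside fth1a, one of them the serum amyloid gene saa, were listed at 0 in all 6 libraries.

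Added up, the family was at similar levels in both groups. FPKM times gene length in kb is proportional to the fragments of a gene if the deposited length is that behind the FPKM. If each fragment was also counted once and within these rows, the sum over rows does not depend on how fragments were divided between them. No source used here states this. Over all genes the product summed to 1037830 in DMSO replicate 1 and 992472 in DMSO replicate 3, so the comparison of libraries is approximate. The family sum was 998, 944 and 783 FPKM × kb in DMSO and 1021, 956 and 944 in 6PPD. The means were 908 ± 112 and 974 ± 41.4 (SD, n = 3), a ratio of 1.07, and the ranges overlapped. In DMSO fth1a held 64.8% of it and fthl27 held 32.4%, and in 6PPD 63.8% and 31.4%. The low copies fthl28, fthl29, fthl30 and fthl31 together held 1.06% in DMSO and 2.91% in 6PPD.

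The gain of the low copies was small beside the main genes. Together they summed to 9.44, 12.7 and 6.73 FPKM × kb in DMSO and to 31.7, 25.1 and 28.1 in 6PPD, a difference of means of 18.7. That difference is less than the SD of fthl27 between the DMSO libraries, which was 22.3 FPKM × kb. The SD of the low copies' own sum was 2.97 FPKM × kb in DMSO and 3.31 in 6PPD. The part of fragments of fthl27 assigned to its neighbours in the difference of 18.7 was not tested. Per 100 FPKM of fthl27 in the same library, a ratio free of library scaling, fthl31 was at 2.45, 3.52 and 2.16 in DMSO and at 8.89, 7.29 and 8.43 in 6PPD. On the same ratio fthl28 was at 1.71, 2.25 and 1.25 in DMSO and 5.62, 3.60 and 6.01 in 6PPD, and neither gene's groups overlapped. The level of fthl31 was 1.40 to 2.03 times that of fthl28 over all 6 libraries, with both extremes in the 6PPD group.

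**Figure D3:**
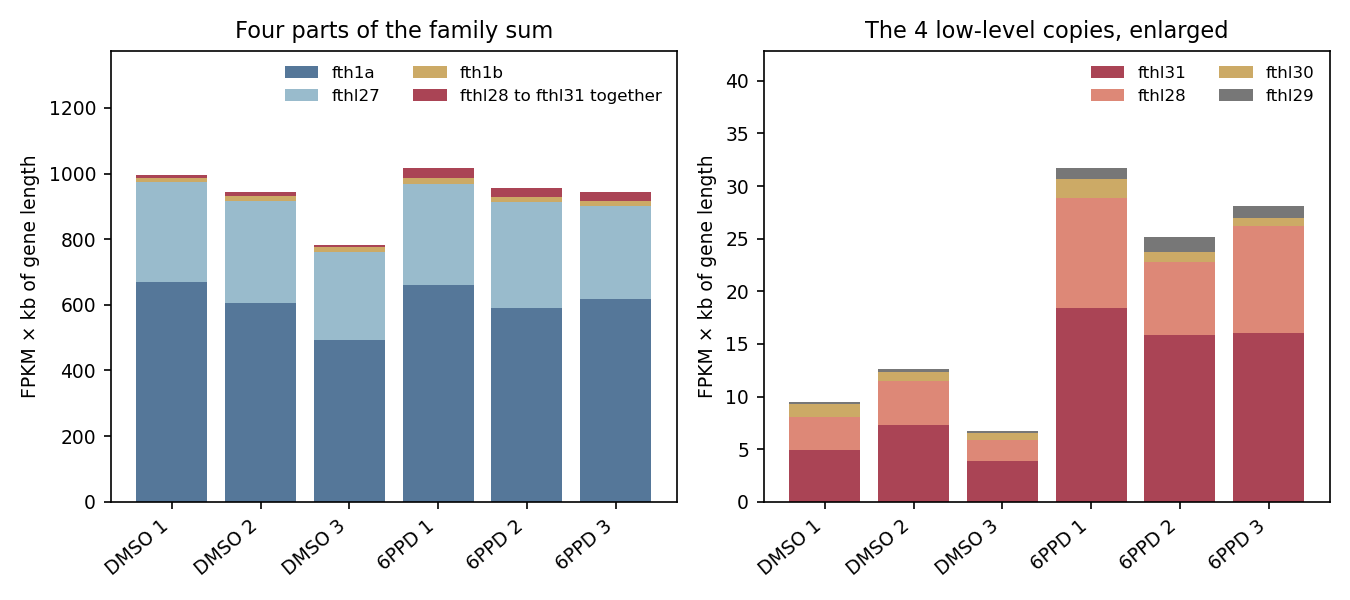
FPKM times gene length in kb (bars from 0) in each library, stacked for fth1a, fthl27, fth1b and the 4 low copies (left) and for those 4 copies alone on an enlarged axis (right). The low copies summed to 6.73 to 12.7 in DMSO and 25.1 to 31.7 in 6PPD, beside family sums of 783 to 1021.

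By adjusted p in the main fit, the other genes of iron handling were called about as often as all genes. Of 49 genes listed for iron uptake, export, sensing, ferritin loading, mitochondrial iron, heme breakdown and the Nrf2 and Bach1 regulators, 45 had a row, 33 were tested and 1 was called, 3.03% where 3.41% of all tested genes were called. The called gene was blvrb, a biliverdin reductase gene listed under heme breakdown. It rose from 7.82, 7.84 and 7.40 FPKM in DMSO to 13.2, 13.4 and 10.6 FPKM in 6PPD, a log2 difference of 0.62 ± 0.11 (limma adjusted p = 0.0184). The call was lost in 4 of 15 alternatives, over which adjusted p was 0.0133 to 0.0938. At an unadjusted p under 0.05 there were 9 of the 33, 7 higher and 2 lower, where 20.3% of all tested genes had such a p in either direction. The groups did not overlap in 8 of the 33 that were higher and 4 of the 33 that were lower in 6PPD. Of all tested genes 17.1% and 9.18% separated in this way. On these measures and by unadjusted p, the shares among the 33 were larger than among all tested genes, a difference that was not tested. The median log2 difference was 0.05, against 0.06 for all genes.

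Among genes that act on ferritin itself, none of 4 tested loading and turnover genes was called by limma, and at an unadjusted p under 0.05 there was 1, higher. This was ncoa4, the ferritin cargo receptor, at 22.3, 19.2 and 24.3 FPKM in controls and 25.2, 27.6 and 26.4 after 6PPD (log2 difference 0.26 ± 0.10, limma adjusted p = 0.173, 0.0655 to 0.422 over the alternatives). The iron sensing and hepcidin genes had 3 tested members, 0 called by limma and 2 higher at an unadjusted p under 0.05. The 2 higher genes were fbxl5 and ireb2, and the other was bmp6, with overlapping groups (log2 difference 0.06). The gene fbxl5, whose product marks iron regulatory protein for degradation when iron is present, had 11.0 ± 1.11 FPKM in controls and 14.8 ± 0.462 after 6PPD (limma adjusted p = 0.0560, 0.0247 to 0.202 over the alternatives, with the lowest when DMSO replicate 3 was left out). The gene ireb2, which encodes an iron regulatory protein, was at 17.1 ± 0.573 and 20.7 ± 0.318 FPKM (limma adjusted p = 0.101). In both genes the 6PPD libraries lay above the DMSO libraries. Below the filter, aco1 of the same role had a mean of 0.990 FPKM over all libraries. It was at 0.770 ± 0.286 FPKM in controls and 1.21 ± 0.134 after 6PPD, without overlap. The hepcidin gene hamp was listed at 0 in all libraries.

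Transport genes were not called either. The exporter gene slc40a1 (ferroportin), the 1 tested export gene, was at 12.5, 11.3 and 14.1 FPKM in controls and 17.3, 16.4 and 16.2 after 6PPD, without overlap (log2 difference 0.38 ± 0.10, limma adjusted p = 0.0722, 0.0302 to 0.243 over the alternatives, with the lowest when DMSO replicate 3 was left out). Of 10 uptake genes 5 were tested, limma called 0, and 0 of those tested had an unadjusted p under 0.05. The transferrin receptor gene tfr1a was at 2.24 ± 0.793 and 3.16 ± 0.125 FPKM without overlap (limma adjusted p = 0.262). The groups overlapped for tfr1b, at 7.85 ± 0.731 and 9.32 ± 0.876 FPKM (0.292). Among those below the filter, slc39a8 was lower in each 6PPD library (0.543 ± 0.120 and 0.263 ± 0.0813 FPKM). There tfr2 was higher in each 6PPD library (0.251 ± 0.0861 and 0.442 ± 0.0227 FPKM). None of 6 tested mitochondrial genes was called by limma, and 0 had an unadjusted p under 0.05. The smallest p there was that of the cysteine desulfurase gene nfs1, at 11.2 ± 0.666 and 9.47 ± 1.27 FPKM without overlap (limma adjusted p = 0.293).

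The regulators of ferritin transcription had 6 tested genes, with 0 called by limma and, at an unadjusted p under 0.05, 1 higher and 2 lower. The higher gene was keap1b, at 10.6 ± 0.402 FPKM in controls and 12.6 ± 0.757 after 6PPD, without overlap (log2 difference 0.23 ± 0.09, limma adjusted p = 0.198). Both Nrf2 genes were on the lower side. The gene nfe2l2a was at 8.84, 7.13 and 8.63 FPKM in controls and 6.38, 5.26 and 5.50 after 6PPD, without overlap (log2 difference -0.45 ± 0.12, limma adjusted p = 0.0746). Its adjusted p was 0.0338 to 0.215 over the alternatives, and it was called after median-ratio scaling (0.0346) and quantile normalization (0.0338). The gene nfe2l2b was at 1.31 ± 0.0425 and 0.695 ± 0.0370 FPKM (-0.45 ± 0.13, limma adjusted p = 0.0917, 0.0428 to 0.269 over the alternatives, with the lowest without the intensity trend). Its mean over all libraries, 1.001 FPKM, was just above the filter, which it passed only through its DMSO libraries. The heme oxygenase gene hmox1a, a further target of Nrf2 and Bach1 in vertebrates, was at 11.1 ± 2.39 and 10.9 ± 1.3 FPKM (limma adjusted p = 0.977), with overlapping groups.

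**Figure D4:**
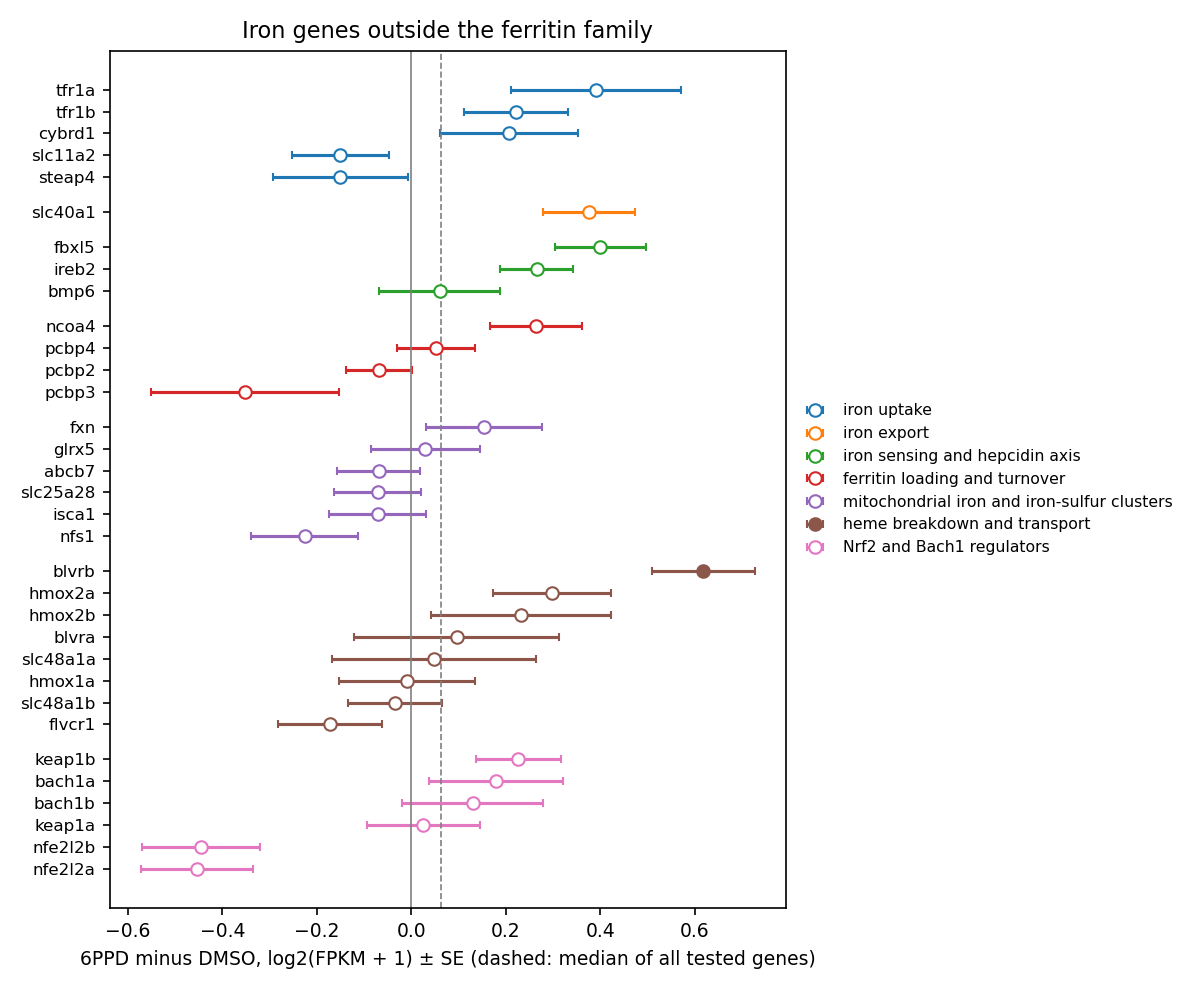
Difference between 6PPD and DMSO on the log2(FPKM + 1) scale (horizontal axis, with SE) for the 33 tested iron genes outside the ferritin family, coloured by role, with filled points for an adjusted p under 0.05. The filled point is blvrb at 0.62, and nfe2l2a and nfe2l2b stand at -0.45.

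Markers of cells that could carry ferritin mRNA were read in the same libraries. Red blood cells of the embryo are rich in iron. Of 13 tested rows of red blood cell markers limma called 0, and 10 had a negative log2 difference. Of these 10, 3 had an unadjusted p under 0.05, and the same 3 were lower in 6PPD without overlap. The sum of the red blood cell markers was 2695 to 3736 FPKM in DMSO and 2910 to 3055 FPKM in 6PPD, with no listed marker at 0 in all libraries. Macrophage and microglia markers had 4 tested of 7, 0 called by limma and 1 higher at an unadjusted p under 0.05, which was also without overlap. Of those tested, 3 had a positive and 1 a negative log2 difference, and the sums were 13.1 to 14.7 FPKM in DMSO and 14.8 to 17.1 FPKM in 6PPD. Neutrophil markers had negative log2 differences in all 5 tested rows, 3 of them without overlap. Of these rows 1 was called, the lysozyme gene lyz (limma adjusted p = 0.0468). The mmp13a row without overlap, at 3.08 ± 2.85 FPKM in DMSO and 0.377 ± 0.0246 in 6PPD, passed the filter only through its DMSO libraries. The other mmp13a row overlapped, with a log2 difference of -0.04. The neutrophil sums were 19.0 to 30.9 FPKM in DMSO and 14.7 to 17.4 FPKM in 6PPD. All 8 epidermal markers had a negative log2 difference, with a median of -0.47, 6 of them with an unadjusted p under 0.05 and 4 without overlap. Of these, 1 was called, the claudin gene cldne (limma adjusted p = 0.0470), and the sums were 4106 to 7287 and 3383 to 4331 FPKM. The alternatives were not read for single markers. Hatching gland markers had 6 tested rows, more than 1 of them named ctslb, 0 called by limma and 3 lower at an unadjusted p under 0.05. All 6 had a negative log2 difference, with a median of -0.91, and the groups overlapped in each. Their sums were 18.5 to 37.5 and 4.73 to 32.7 FPKM. Liver and yolk markers were near 0, with fabp10a at 0 in all libraries, except apoa1b at 7.08 FPKM in DMSO replicate 3. Across all 15320 tested genes limma called 3.41%, and the groups separated with 6PPD lower in 9.18% and higher in 17.1%. The unadjusted threshold was met by 20.3% of those genes, rises and falls counted together. The part of these cells in the levels of the ferritin genes was not tested.

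The genes whose levels were most like those of 4 members were taken by Pearson correlation of log2(FPKM + 1) over the 6 libraries, among tested genes outside the family. These correlations are a description, they rest on 6 libraries and contain the difference between the groups. For fthl31 the 5 nearest were def8, BX649250.2, the augmin subunit gene haus1, the lysosomal cathepsin gene ctsz and birc5a, which encodes survivin, with r of 0.987 to 0.996, and 122 genes had r over 0.95. For fthl28 they were the ceramide synthase gene cers4a, akt1s1, the nucleoside transporter gene slc29a2, nemp2 and def8, with r of 0.989 to 0.995, and 105 genes had r over 0.95. The gene def8 is in both sets, although its own log2 difference was 0.18. For fth1a they were mibp2, the homeobox gene tlx2, the selenoprotein gene selenow2a, ctdnep1a and the translation elongation factor gene eef1b2 (r of 0.973 to 0.981, 17 genes over 0.95). For fthl27 they were phlda1, srbd1, the DNA polymerase subunit gene pole4, si:dkey-60d5.3 and AL954682.2 (r of 0.963 to 0.977, 11 genes over 0.95). No gene was in the sets of both a main and a low copy. The low copies were picked for their difference between the groups, which the main genes lack, so nothing is read from this.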

How the data were processed

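Heads of 6 pools of embryos were sequenced as strand-specific poly(A) libraries, per the labels' protocols. The deposited values are FPKM per gene, computed by the authors and not rescaled to a common sum. Per the submitters' processing notes, GRCz11 was the build, and the tools listed, without version, role or order, are HISAT2, StringTie, featureCounts and fastp. No source used here says whether counting used strand. Groups come from the treatment label and replicate numbers from the titles. At the best step at most 28.7% of low values (up to about 20 steps) were whole within 0.1 of a step, where chance gives 20%, so no count model was used. Genes whose mean reached 1 FPKM were tested with limma 3.58.1 in R 4.3.3 on log2(FPKM + 1), with an intensity trend and without further terms. Such differences understate changes of low genes. Members below the filter come from a fit of every gene above 0. The procedure was tested on data simulated with independent noise from genes whose mean was at least 5 FPKM, so lower genes were not covered. Gene length is as deposited. The members and lists were chosen with earlier results of these data known. Named are all members, the genes beside them, called iron genes and the smallest p of each role among tested genes. For 4 members (the 2 highest and the 2 with the largest difference) the 5 most correlated genes are also named. The genes ireb2, bmp6, aco1, tfr1b, tfr2, slc39a8, nfe2l2b, keap1b, hmox1a and hamp and the single cell type markers were named after their values were seen. Alternatives were the pseudocount (0.1 and 0.5), the filter (none, or 5 FPKM), TPM, median-ratio and quantile scaling, no intensity trend, a replicate block and leaving out each library, and for the family sum the gene length weighting and the rows included. The sum without the short rows and the sum with BX511021.1 were chosen after seeing the data. RefSeq names on GRCz12tu were found for all 7 names.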

Additional observations from a re-analysis of the deposited data

How the results depend on the processing

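Over 15 alternatives the log2 difference of fthl31 was 1.33 to 1.72 and that of fthl28 1.15 to 1.58. The call was lost in 1 of these alternatives for fthl31 (no filter) and in 2 for fthl28 (no filter, and without 6PPD replicate 3). These genes were chosen for this difference, so the ranges and calls are a description. The sum of the family, 6PPD over DMSO, was 1.00 to 1.13 over 12 alternatives, each within 0.139 of the main ratio of 1.07. That width comes from the SDs between single libraries, so it is wider than the error of a ratio of group means. Differences near 0 changed sign. That of fthl27 was -0.023 after median-ratio scaling and -0.0048 to 0.111 with 1 library left out, where fth1a ranged from -0.036 to 0.188 and fthl30 from -0.0096 to 0.355. That of aldh16a1 was -0.051 after median-ratio scaling, -0.044 after quantile normalization and -0.018 to 0.066 with 1 library left out. After rescaling to TPM hmox1a was at 0.040 and best1 at 0.00080, and with 1 library left out they ranged from -0.105 to 0.147 and from -0.149 to 0.107.

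The 522 calls over all genes became 26 with no filter and 335 without the intensity trend, and 170 to 1134 with 1 library left out. They were 170 without DMSO replicate 2 and without 6PPD replicate 3, 185 without 6PPD replicate 1, 211 without 6PPD replicate 2 and 1134 without DMSO replicate 3. The 1 iron gene called became 0 with no filter (11 at an unadjusted p under 0.05), 2 where the mean had to reach 5 FPKM, 2 after median-ratio scaling, 2 after quantile normalization and 2 without the intensity trend, and 0 to 3 with 1 library left out: 0 without DMSO replicate 2, 6PPD replicate 1 or 6PPD replicate 2, with 6 to 9 at an unadjusted p under 0.05, and 3 without DMSO replicate 3. The cause of these changes was not tested. Deviations of same-numbered libraries correlated at 0.03, 0.18 and -0.03 for numbers 1 to 3, and not each library was nearest to its own number. With 3 libraries per group these correlations cannot exclude a pairing, and the labels state none. With the replicate block 455 genes were called. The depth of the libraries is unknown, so the precision of fthl29, fthl30 and the short rows cannot be stated beyond their spread.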
